A study of Mus musculus with 9 samples.

Results

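The genes described here keep cells alive by blocking apoptosis: the anti-apoptotic Bcl2 proteins encoded by Bcl2, Bcl2l1, Bcl2l2, Mcl1, Bcl2a1a, Bcl2a1b and Bcl2a1d, the inhibitor-of-apoptosis genes Birc3 and Xiap, and Cflar, which blocks death receptor signalling. They were chosen by name as survival genes, 10 of the 53458 genes in the files, and all 10 passed the filter on low counts that left 24133 genes to test. The 3 near-identical Bcl2a1 copies were also summed into 1 quantity, called the Bcl2a1 sum. The material was RNA from type 1 conventional dendritic cells (cDC1), which take up dead-cell antigen and present it to CD8 T cells, from the peri-pancreatic lymph node of mice. The labels give 3 libraries for each of 3 neoplasia stages: Healthy, PanIN, with nodes that drain the precursor lesion called pancreatic intraepithelial neoplasia, and Tumor, with nodes that drain a tumour. KPC, in the title of the series, is the usual name for mice that develop pancreatic tumours through a Cre recombinase acting in the pancreas. The alleles, the promoter driving Cre, the genotype of the Healthy mice, their ages and whether nodes were pooled are not stated in the labels. Nothing states that libraries came from separate animals, so p-values measure the spread between these libraries.

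The Bcl2 family decides whether the outer mitochondrial membrane is opened: Bax and Bak1 form the pore, BH3-only proteins trigger it, and the anti-apoptotic members hold both in check by binding them. Inhibitor-of-apoptosis proteins act later or elsewhere, Xiap by binding caspases directly and Birc3 as a ubiquitin ligase in signalling from TNF receptors, while Cflar competes with caspase-8 at death receptors. Dendritic cells are short-lived, and signals that mature them, such as CD40 ligation, are known to raise Bcl2l1 and Bcl2a1 through NF-kB.

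The libraries held 32150281 to 68934430 estimated counts each. All 10 cDC1 markers examined were detected, and together they reached 3625 to 12564 CPM (counts scaled to a common library total with TMM factors), against at most 294 CPM for the marker list of any other cell type. Healthy 2 and Healthy 3 stood apart. In Healthy 2, Ccr7, the receptor that brings migratory dendritic cells into the node, was at 57.2 CPM, and at 419 to 2602 CPM in the other 8 libraries, and Xcr1, the cDC1 chemokine receptor, was highest there at 1081 CPM. Healthy 3 had 1.78% of its counts on 7SL RNA and 6.48% on mitochondrial genes, against 0.263% to 0.765% and 2.48% to 4.99% in the other libraries, and 144 CPM of cDC2 markers, against 35.9 to 64.6 CPM. Tumor over Healthy values of the survival genes that move by more than 1.5 times without one of these libraries are given with and without it. The titles of Healthy 1, PanIN 1 and Tumor 1 share a code whose meaning is not stated.

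The 3 Bcl2a1 copies lie on chromosome 9 (GRCm38) and encode A1 proteins, which are close to identical to each other. Bcl2a1d is on the minus strand at chr9:88723285-88731914, and Bcl2a1a and Bcl2a1b are on the plus strand at chr9:88956900-88962419 and chr9:89199209-89207827. Each has a coding sequence of 519 bases. Bcl2a1a and Bcl2a1b differ at 11 of them, Bcl2a1a and Bcl2a1d at 7, and Bcl2a1b and Bcl2a1d at 6. Of the 12 positions at which any copy differs, 7 fall in the first 150 coding bases, which lie in exon 1 of 2 in each copy. Positions outside the coding sequence, which can also tell the copies apart, were not compared one by one. The stretch of 150 bases, from GENCODE M21 and with the differing positions in capitals, is given because it holds most of the differing coding positions.
Bcl2a1a: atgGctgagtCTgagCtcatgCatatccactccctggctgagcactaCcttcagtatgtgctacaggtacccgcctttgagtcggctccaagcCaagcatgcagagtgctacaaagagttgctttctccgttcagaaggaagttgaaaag
Bcl2a1b: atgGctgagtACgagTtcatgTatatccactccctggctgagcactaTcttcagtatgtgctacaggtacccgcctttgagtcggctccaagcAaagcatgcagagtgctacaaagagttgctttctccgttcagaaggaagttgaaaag
Bcl2a1d: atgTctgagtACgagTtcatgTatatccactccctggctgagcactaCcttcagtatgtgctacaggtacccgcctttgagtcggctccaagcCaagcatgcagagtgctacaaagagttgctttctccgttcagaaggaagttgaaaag
The stretch lies at chr9:88957051-88957200 in Bcl2a1a, chr9:89199360-89199509 in Bcl2a1b and chr9:88731570-88731719 (minus strand) in Bcl2a1d. Counted from 1 at the A of the start codon and with the Bcl2a1a base first, T12C and C16T separate Bcl2a1a from both other copies, and G4T separates Bcl2a1a from Bcl2a1d. Of the 31-base words in the leading transcript, 79.6% in Bcl2a1a, 88.8% in Bcl2a1b and 89.1% in Bcl2a1d also occur in transcripts of other genes, mostly the other copies and Gm29094, a gene annotated over Bcl2a1b on the same strand. The division of reads among the copies is therefore uncertain, and the sum is the safer quantity. Gm29094 held 1.64 to 10.3 CPM, and the fourth copy, Bcl2a1c, at most 0.0787 CPM.

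Upstream of the start sites the copies are also alike. The longest run that all 3 RefSeq promoter windows share (250 bases before to 50 after the annotated start, GRCm38.p6) is 84 bases, at chr9:88956733-88956816 for Bcl2a1a, chr9:89199042-89199125 for Bcl2a1b and chr9:88731948-88732031 (minus strand) for Bcl2a1d, and it is shown because the 3 copies were all highest in Tumor libraries.
Bcl2a1 copies: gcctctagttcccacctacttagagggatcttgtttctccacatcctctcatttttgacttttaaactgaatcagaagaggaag
The NF-kB consensus, searched on both strands, occurs in 8.46% of 32851 mouse promoter windows. Among the 14 windows of the 10 survival genes it occurs in 2, as GGGGGTCTCC in a Bcl2l1 window, starting at -242 from that start site, and as GGGACCCTCC in a Xiap window, starting at 23. The Bcl2a1 and Birc3 windows hold no match, which says only that these letters are not in those 300 bases.

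By level per length (TPM, the deposited length-normalised measure, with transcripts summed), the Bcl2a1 sum led the survival genes in cDC1 in 9 of 9 libraries, with 800 ± 278 TPM (SD over 9 libraries). Birc3 followed at 176 ± 58.1 TPM and Mcl1, a short-lived protein needed by many immune cells, at 101 ± 29.4 TPM. That order holds for summed TPM, to which short transcripts add much. Birc3-201, which encodes 602 residues, held on average 34.6% of Birc3 TPM. Birc3-207, of 565 bases and annotated for nonsense-mediated decay, held 32.7%. Mcl1-201 held 99.9% of Mcl1 TPM. By CPM, which is not per length, Mcl1 averaged 574 CPM and Birc3 294 CPM. Cflar was at 33.7 ± 13.1 TPM, Bcl2l1 at 13.1 ± 3.88 TPM and Xiap at 10.4 ± 4.03 TPM. Bcl2l2 at 3.5 ± 1.24 TPM and Bcl2, the family's founding member, at 1.52 ± 0.349 TPM were lowest. Each gene lay above the next in 9 of 9 libraries, except Bcl2l1, which lay above Xiap in 6 of 9. It lay below Xiap in PanIN 2, PanIN 3 and Healthy 2, so the order of those neighbours depends on the library. The order was not tested. The Bcl2a1 sum made up 70.9% ± 0.799 of the TPM of the 10 genes in Healthy libraries, 61.2% ± 8.48 of it in PanIN libraries and 76.4% ± 3.96 of it in Tumor libraries (SD, n = 3 each).

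**Figure D1:**
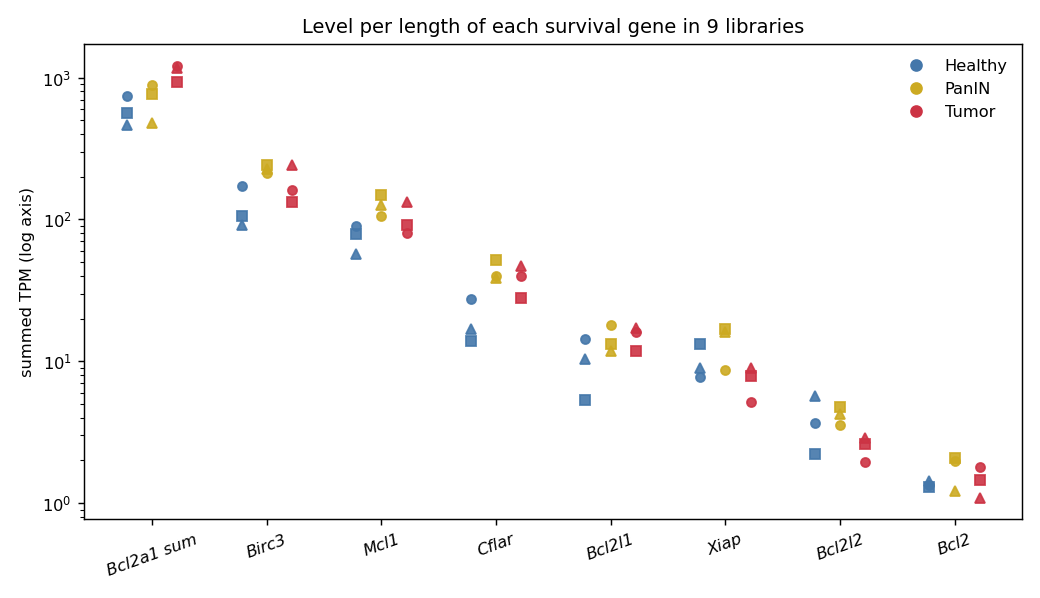
Summed TPM (log axis) of each survival gene in the 9 libraries, coloured by stage, with circles, squares and triangles for libraries 1, 2 and 3. The genes keep nearly the same order in every library, from the Bcl2a1 sum at 460 to 1214 TPM down to Bcl2 at 1.09 to 2.07 TPM.

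The stages were compared to ask whether survival genes in node cDC1 differ as neoplasia advances. The Bcl2a1 sum was about equal in PanIN and Healthy libraries and higher in Tumor libraries. Its CPM was 663, 551 and 449 in the Healthy libraries, 727, 543 and 346 in the PanIN libraries and 1279, 933 and 963 in the Tumor libraries. Every Tumor library lay above every PanIN and every Healthy library, while PanIN and Healthy overlapped. Healthy libraries averaged 555 ± 107 CPM, PanIN libraries 539 ± 190 CPM and Tumor libraries 1058 ± 191 CPM (SD, n = 3 each). In TPM, where PanIN lay nominally above Healthy, the means were 589 ± 145 TPM in Healthy, 707 ± 210 TPM in PanIN and 1106 ± 153 TPM in Tumor libraries (SD, n = 3 each).

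The log2 fold change of the Bcl2a1 sum, Tumor over Healthy, was 0.93 (SE 0.31, a 1.91-fold difference), with an unadjusted p of 0.0109 and an adjusted p of 0.17 by the quasi-likelihood test of edgeR, Benjamini-Hochberg adjusted over all genes. Tumor over PanIN it was 0.97 (SE 0.31, 1.96-fold; edgeR adjusted p = 1, unadjusted 0.00855), and PanIN over Healthy it was -0.04 (SE 0.31; edgeR adjusted p = 0.981). Neither Tumor contrast passed the threshold of 0.05 by edgeR. DESeq2 gave the Tumor over Healthy difference of the sum an adjusted p of 0.0451. It was 0.93 without Healthy 2 and 0.67 (SE 0.38) with Healthy 1 as the only Healthy library. Within the shared title code, with 1 library each, the difference was 0.95 for Tumor minus Healthy and 0.81 for Tumor minus PanIN, and in the other 6 libraries it was 0.93 and 1.13.

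The separate copies followed the sum. Bcl2a1b had 626, 430 and 448 CPM in Tumor libraries, against 304, 196 and 195 CPM in Healthy libraries, a log2 fold change of 1.12 (SE 0.33; edgeR adjusted p = 0.168). Bcl2a1d had 383, 290 and 303 CPM in Tumor libraries, against 196, 173 and 156 CPM in Healthy libraries, with a log2 fold change of 0.90 (SE 0.26; edgeR adjusted p = 0.168). Bcl2a1a had 270, 213 and 212 CPM in Tumor libraries, against 164, 183 and 98.3 CPM in Healthy libraries, and 0.64 (SE 0.32; edgeR adjusted p = 0.323). PanIN libraries held 339, 239 and 146 CPM of Bcl2a1b, 222, 167 and 126 CPM of Bcl2a1d and 166, 137 and 73.8 CPM of Bcl2a1a. In each copy the Tumor libraries lay above all others. Tumor over PanIN, the log2 fold change was 1.05 (SE 0.33) for Bcl2a1b, 0.92 (SE 0.26) for Bcl2a1d and 0.88 (SE 0.32) for Bcl2a1a, each with an edgeR adjusted p of 1. Bcl2a1b took 35.5% to 49% of the summed counts, Bcl2a1d 29.5% to 36.4% and Bcl2a1a 21.1% to 33.2%. Healthy 2 departed most, with the highest share of Bcl2a1a and the lowest of Bcl2a1b.

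Neutrophils and B cells also express Bcl2a1, and their markers were present at low levels. The 9 neutrophil markers together held 2.57 to 5.02 CPM in Healthy, 4.02 to 39.7 CPM in PanIN and 3.23 to 9.72 CPM in Tumor libraries. S100a9 had the highest mean of them, and only 1, Ly6g, was under 1 CPM in all 9 libraries. The 8 B cell markers held 24.3 to 27.2 CPM in Healthy, 24.1 to 236 CPM in PanIN and 23.4 to 63.9 CPM in Tumor libraries. PanIN 2 had the highest values of both lists. Markers of several other cell types were highest in Tumor 1, the library with the most Bcl2a1. The 5 plasma cell markers held 15.7 to 40.6 CPM in Healthy, 34.5 to 78.5 CPM in PanIN and 14.8 to 219 CPM in Tumor libraries, with 219 CPM in Tumor 1 and 100 CPM in Tumor 2. The 8 T cell markers reached 259 CPM in Tumor 1, against 32.1 to 180 CPM in the other libraries. The 5 markers of plasmacytoid dendritic cells reached 247 CPM there, against 130 to 203 CPM, and the 8 epithelial and acinar markers 86.3 CPM, against 6.73 to 11.4 CPM. Without Tumor 1 the log2 fold change of the Bcl2a1 sum was 0.78 (SE 0.36; edgeR adjusted p = 0.372) for Tumor over Healthy and 0.82 (SE 0.36; edgeR adjusted p = 1) for Tumor over PanIN. The part of these other cells in the result was not tested. Between bulk libraries, more cells with a transcript and more transcript per cell cannot be told apart.

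**Figure D2:**
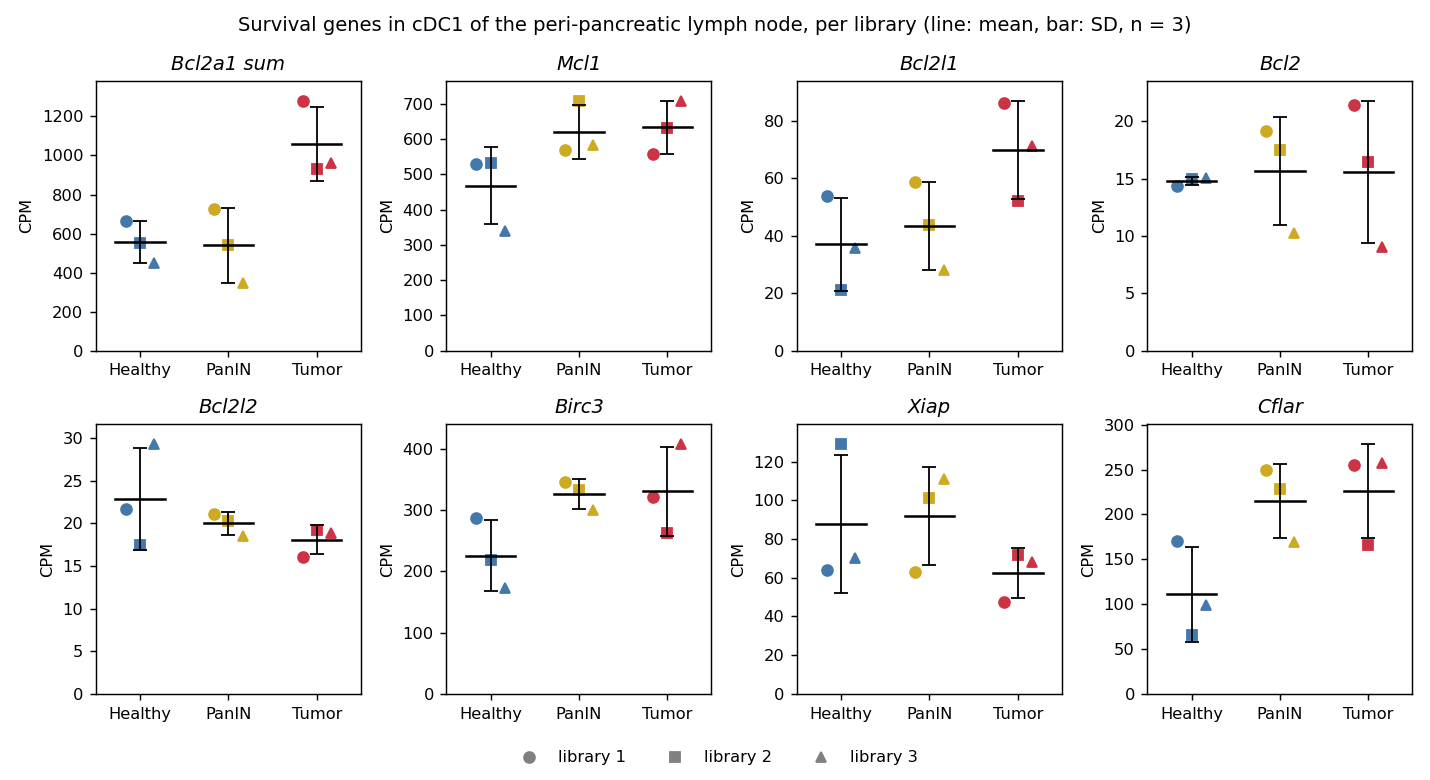
CPM of the Bcl2a1 sum and of 7 other survival genes in each library by stage, with symbols for the libraries, a line for the mean and a bar for the SD (n = 3). Tumor libraries stand clear of the others in the Bcl2a1 sum, at 933 to 1279 CPM, while Cflar, Birc3 and Mcl1 have like means in PanIN and Tumor and lower ones in Healthy.

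Mcl1 (chr3:95658788-95663176, plus strand) sequesters Bak1 and the BH3-only protein Bcl2l11. It had 530, 533 and 340 CPM in Healthy libraries, 570, 708 and 582 CPM in PanIN libraries and 559, 632 and 708 CPM in Tumor libraries. In CPM all PanIN and all Tumor libraries lay above all Healthy ones, with Healthy 1 and Healthy 2 close below Tumor 1. In TPM Tumor 1, at 79.6 TPM, lay below Healthy 1, at 90.1 TPM. The TPM means were 75.4 ± 16.8 in Healthy, 126 ± 21.5 in PanIN and 101 ± 27.7 in Tumor libraries (SD, n = 3 each). The log2 fold change was 0.44 (SE 0.26; edgeR adjusted p = 0.416) for Tumor over Healthy and 0.41 (SE 0.26; edgeR adjusted p = 0.634) for PanIN over Healthy. Without Healthy 3 these values were 0.27 (SE 0.21; edgeR adjusted p = 0.665) and 0.24 (SE 0.21; edgeR adjusted p = 0.9). Nearly all counts belonged to Mcl1-201, which encodes the full-length protein of 331 residues.

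Bcl2l1 (chr2:152780668-152831728, minus strand) encodes Bcl-xL, which binds Bax and several BH3-only proteins. It had 53.9, 21.3 and 35.7 CPM in Healthy libraries, 58.6, 43.9 and 28.1 CPM in PanIN libraries and 86.3, 52 and 71.1 CPM in Tumor libraries. Tumor was higher than Healthy in 8 of 9 pairs of libraries, the exception being Healthy 1 over Tumor 2. The log2 fold change was 0.92 (SE 0.35; unadjusted p = 0.0233, edgeR adjusted p = 0.211) for Tumor over Healthy, and 0.64 (SE 0.32; edgeR unadjusted p = 0.0669) without Healthy 2. It was 0.68 (SE 0.35; edgeR adjusted p = 1) for Tumor over PanIN and 0.24 (SE 0.35; edgeR adjusted p = 0.884) for PanIN over Healthy. In TPM, PanIN lay close to Tumor, with means of 10.1 ± 4.52 TPM in Healthy, 14.3 ± 3.17 TPM in PanIN and 15 ± 2.85 TPM in Tumor libraries. Fitted on log2(TPM + 1), the value was 0.07 (SE 0.34) for Tumor over PanIN and 0.54 (SE 0.34) for PanIN over Healthy. The medians over all genes were then -0.16 and 0.11. The leading transcript, Bcl2l1-201, encodes a protein of 233 residues and had 39.1, 17.1 and 25.2 CPM in Healthy libraries, 39.6, 33.8 and 16.3 CPM in PanIN libraries and 77.7, 45.6 and 54 CPM in Tumor libraries. For that transcript no Tumor library overlapped the other stages, a description with no test of its own.

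Bcl2 (chr1:106538178-106714274, minus strand) and Bcl2l2 (chr14:54883377-54888234, plus strand), which encodes Bcl-w, were low and differed little. Bcl2 averaged 14.8 ± 0.343 CPM in Healthy, 15.7 ± 4.7 CPM in PanIN and 15.6 ± 6.18 CPM in Tumor libraries (SD, n = 3 each), and its libraries ran from 9.07 CPM in Tumor 3 to 21.4 CPM in Tumor 1. Bcl2l2 averaged 22.9 ± 5.97 CPM in Healthy, 20 ± 1.33 CPM in PanIN and 18.1 ± 1.74 CPM in Tumor libraries (SD, n = 3 each), with the highest library, Healthy 3, at 29.3 CPM. The groups overlapped in every comparison of both genes. Tumor over Healthy, the log2 fold change was 0.08 (SE 0.34; edgeR adjusted p = 0.944) for Bcl2 and -0.34 (SE 0.25; edgeR adjusted p = 0.523) for Bcl2l2, and the Bcl2l2 value was -0.11 (SE 0.23; edgeR adjusted p = 0.898) without Healthy 3.

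Birc3 (cIAP2; chr9:7848699-7873186, minus strand) joins TRAF proteins in TNF receptor complexes, where it ubiquitinates Ripk1 and restrains the kinase Map3k14. It had 287, 218 and 172 CPM in Healthy libraries, 346, 332 and 300 CPM in PanIN libraries and 321, 262 and 407 CPM in Tumor libraries. All PanIN libraries lay above all Healthy ones, and Tumor 2 alone among Tumor libraries fell below Healthy 1. The log2 fold change was 0.53 (SE 0.26; unadjusted p = 0.0627, edgeR adjusted p = 0.5) for PanIN over Healthy and 0.55 (SE 0.26; unadjusted p = 0.0561, edgeR adjusted p = 0.296) for Tumor over Healthy. Tumor over PanIN it was 0.02 (SE 0.26; edgeR adjusted p = 1). These 2 contrasts against Healthy share the Healthy libraries. In TPM the stages ordered differently, with 172, 106 and 90.8 TPM in Healthy libraries, 211, 240 and 228 TPM in PanIN libraries and 160, 133 and 243 TPM in Tumor libraries. Within the shared title code, with 1 library each, the difference was 0.27 for PanIN minus Healthy and 0.16 for Tumor minus Healthy, against 0.71 and 0.76 in the other 6 libraries.

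Most Birc3 counts, 75.5% to 83.2%, went to Birc3-201, which encodes a protein of 602 residues. Of Birc3 TPM it held 30.3% to 38.6%. A shorter coding transcript, Birc3-202, ends after 376 codons and had 10.8, 3.19 and 8.22 CPM in Healthy libraries, 21.4, 19.1 and 23.6 CPM in PanIN libraries and 25.9, 17.2 and 23 CPM in Tumor libraries. Its PanIN and Tumor libraries all lay above its Healthy libraries, again with no test of its own. Birc2 (cIAP1), the close relative next to Birc3 on chromosome 9, had 136, 44.3 and 95 CPM in Healthy libraries, 186, 146 and 150 CPM in PanIN libraries and 241, 112 and 238 CPM in Tumor libraries. Its log2 fold change was 0.81 (SE 0.39; edgeR adjusted p = 0.489) for PanIN over Healthy and 1.10 (SE 0.39; edgeR adjusted p = 0.179) for Tumor over Healthy.

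Xiap (chrX:42059679-42109656, plus strand), which inhibits caspases by direct binding, was the only survival gene apart from Bcl2l2 with a lower mean in Tumor than in both other stages. It had 63.9, 129 and 70.3 CPM in Healthy libraries, 63.2, 101 and 111 CPM in PanIN libraries and 47.6, 71.7 and 67.9 CPM in Tumor libraries. The stages overlapped, and the Healthy mean rested on Healthy 2. The log2 fold change was -0.49 (SE 0.31; edgeR adjusted p = 0.451) for Tumor over Healthy, -0.56 (SE 0.31; edgeR adjusted p = 1) for Tumor over PanIN and 0.07 (SE 0.31; edgeR adjusted p = 0.971) for PanIN over Healthy. Without Healthy 2 the Tumor over Healthy value was -0.10 (SE 0.26; edgeR adjusted p = 0.833) and the PanIN over Healthy value 0.46 (SE 0.26; edgeR adjusted p = 0.352), and with Healthy 1 as the only Healthy library they were -0.04 (SE 0.33) and 0.52 (SE 0.34).

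Splitting Xiap by transcript gave a different picture from its total. Its leading transcript, Xiap-207, is annotated without a coding sequence. It took 35.6%, 15.3% and 35.5% of Xiap counts in Healthy libraries, 61.6%, 45.8% and 29.5% in PanIN libraries and 62.7%, 68.7% and 55.5% in Tumor libraries. Every Tumor library lay above every Healthy one, and PanIN spanned the range between. Over all assignments of the 9 libraries to stages, the exact permutation test of the share (on an F statistic, which has no direction) gave p = 0.0464, and 0.163 after Benjamini-Hochberg adjustment over the leading transcripts of 7 genes, so it did not pass.

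The transcripts annotated as coding held 40.7, 109 and 44.7 CPM of Xiap in Healthy libraries, 24.1, 53.4 and 77.6 CPM in PanIN libraries and 16.9, 22 and 30 CPM in Tumor libraries. All Tumor libraries lay below all Healthy ones, and below 2 of the 3 PanIN libraries. In a fit added after seeing the data, with coding transcripts alone summed for the 10 genes, the Xiap log2 fold change for Tumor over Healthy was -1.50 (SE 0.45; unadjusted p = 0.00613, edgeR adjusted p = 0.167), and -0.89 (SE 0.38; unadjusted p = 0.0387, edgeR adjusted p = 0.159) without Healthy 2. All 5407 bases of Xiap-207 lie inside exons of the coding transcripts, 5 of its 6 exons being identical to theirs. It leaves out an exon of 906 bases at the start of the coding sequence. Its first exon also differs from that of Xiap-202, the coding transcript with the most counts. Xiap-207 starts at chrX:42068755 and Xiap-202 at chrX:42071325. The split therefore rests on reads over the left-out exon, its junctions and the first exons, and the evenness of coverage along the transcript was not tested. Among the other leading transcripts, the smallest exact permutation p was 0.0429 for Bcl2-201 (adjusted 0.163), which took 88.2% ± 2.59 of Bcl2 counts in Healthy, 89% ± 0.562 in PanIN and 82.5% ± 4.5 in Tumor libraries (SD, n = 3 each).

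**Figure D3:**
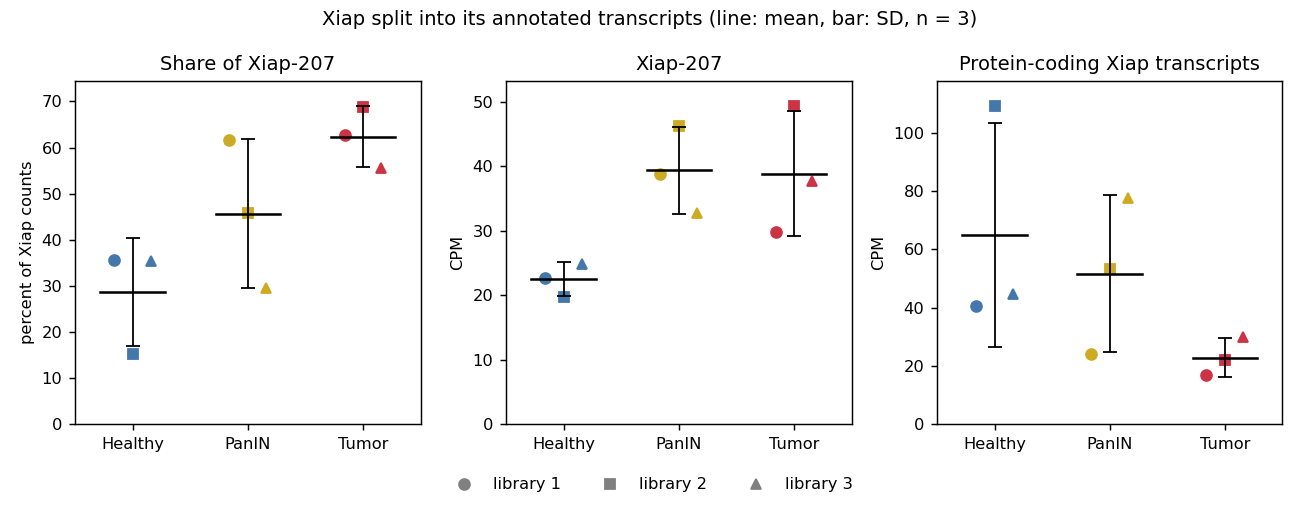
Left, the percentage of Xiap counts given to the non-coding transcript Xiap-207; middle, the CPM of Xiap-207; right, the CPM of the coding Xiap transcripts, by stage, with symbols for libraries, a line for the mean and a bar for the SD (n = 3). Xiap-207 took 28.8% ± 11.7 of counts in Healthy libraries, 45.7% ± 16.1 in PanIN libraries and 62.3% ± 6.61 in Tumor libraries, and the coding transcripts lie lowest in Tumor, at 16.9 to 30 CPM.

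Cflar (chr1:58711508-58758884, plus strand) encodes c-FLIP, which resembles caspase-8 but lacks its activity and so dampens death receptor signals. It had 170, 65.6 and 98.9 CPM in Healthy libraries, 249, 228 and 169 CPM in PanIN libraries and 255, 166 and 257 CPM in Tumor libraries. In CPM only Healthy 1 reached the lowest PanIN and Tumor libraries. In TPM it lay below them, though at 27.6 TPM it was close to Tumor 2 at 27.8 TPM. The TPM means were 19.4 ± 7.24 in Healthy, 43.4 ± 7.5 in PanIN and 38.4 ± 9.81 in Tumor libraries (SD, n = 3 each). Healthy libraries averaged 111 ± 53.2 CPM, PanIN libraries 215 ± 41.6 CPM and Tumor libraries 226 ± 52.3 CPM (SD, n = 3 each).

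The log2 fold change of Cflar was 1.02 (SE 0.34, 2.03-fold; unadjusted p = 0.0103, edgeR adjusted p = 0.17) for Tumor over Healthy and 0.95 (SE 0.34; unadjusted p = 0.0152, edgeR adjusted p = 0.457) for PanIN over Healthy, contrasts that share the Healthy libraries. It was 0.07 (SE 0.33; edgeR adjusted p = 1) for Tumor over PanIN. Without Healthy 2 the first 2 values were 0.75 (SE 0.29) and 0.68 (SE 0.29), and with Healthy 1 as the only Healthy library they were 0.41 (SE 0.31) and 0.34 (SE 0.31). Within the shared title code the differences were 0.59 for Tumor minus Healthy and 0.55 for PanIN minus Healthy, against 1.36 and 1.28 in the other 6 libraries.

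Most Cflar counts, 79.1% to 86.6%, went to Cflar-205, which encodes the long form of 481 residues. Cflar-204, a short form of 215 residues that keeps the start of the protein, had 15.6, 4.08 and 6.91 CPM in Healthy libraries, 22, 16.8 and 13 CPM in PanIN libraries and 39.5, 20.5 and 25.1 CPM in Tumor libraries. Its Tumor libraries lay above its Healthy ones, and Tumor 2 fell below PanIN 1. The share of the long form gave an exact permutation p of 0.211 (adjusted 0.295).

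Over the 10 survival genes, none passed an adjusted p of 0.05 by edgeR for Tumor over Healthy, where 0.0249% of all genes tested did. At an unadjusted p under 0.05, 4 were higher in Tumor (Bcl2l1, Bcl2a1b, Bcl2a1d and Cflar) and none lower, against 6.82% of all genes higher and 11% lower. In 4 (Mcl1 and the 3 Bcl2a1 copies) every Tumor library lay above every Healthy library in CPM, against 9.02% of all genes. DESeq2 called 2 of the 10, Bcl2a1b (adjusted p = 0.0308) and Bcl2a1d (adjusted p = 0.0294), where it called 6.12% of all genes. Among the 9981 genes whose mean log2 CPM reached 3, as that of each survival gene did, the shares were 10.7% for the unadjusted p and 13.1% for separated groups. The Bcl2a1 copies share reads, so the counts of 4, 4 and 2 hold them as if they were separate genes.

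For PanIN over Healthy, none of the 10 passed by edgeR or DESeq2. Over all genes, 0% passed by edgeR, and 186 of 24133 by DESeq2. At an unadjusted p under 0.05, Cflar alone was higher, against 4.82% of all genes, and none was lower, against 5.65%. PanIN libraries all lay above Healthy in 2 genes, Mcl1 and Birc3, against 7.4% of all genes. Among the 9981 genes whose mean log2 CPM reached 3, the shares were 6.71% higher, 6.87% lower and 8.91% with separated groups. For Tumor over PanIN none of the 10 passed by edgeR or DESeq2, where 0.0124% of all genes did by edgeR and 30 of 24133 by DESeq2. The 3 Bcl2a1 copies, which share reads, were higher at an unadjusted p under 0.05, against 2.02% of all genes, while none was lower, against 2.52%. The 3 copies were also the genes whose Tumor libraries all lay above PanIN, against 8.33% of all genes. Among the same 9981 genes the shares were 3.33% higher, 2.42% lower and 13.7% with separated groups. In the edgeR test of any difference among the 3 stages none of the 10 passed, where 0.0207% of all genes did, and the smallest adjusted p was 0.295.

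The median log2 fold change of the 10 genes was 0.60 for Tumor over Healthy, with 8 of 10 above 0, against a median of -0.11 and 43.5% above 0 over all genes tested. It was 0.07 for PanIN over Healthy, with 7 of 10 above 0, against -0.10 and 42.5% over all genes. For Tumor over PanIN it was 0.05, with 7 of 10 above 0, against -0.05 and 45.8% over all genes. Among the 9981 genes whose mean log2 CPM reached 3, the median was 0.03 for Tumor over Healthy, -0.00 for PanIN over Healthy and -0.02 for Tumor over PanIN. The 3 Bcl2a1 copies, which share reads, each count as 1 of the 10 genes in these medians and counts, so the 10 are not independent.

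**Figure D4:**
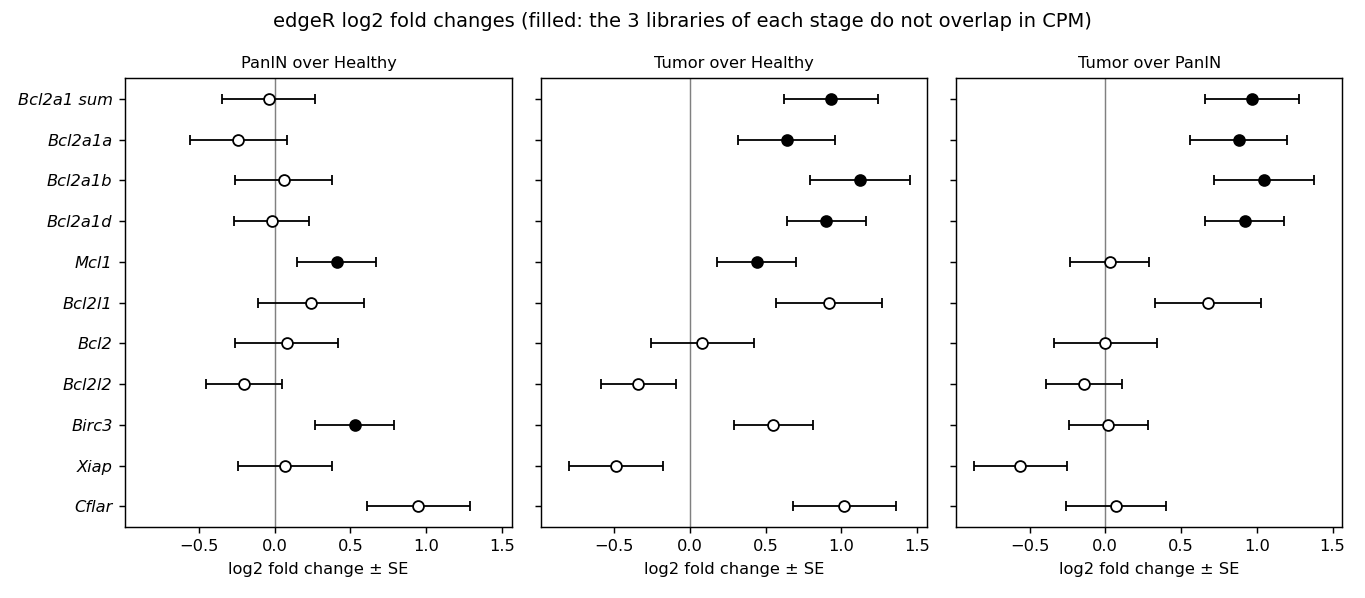
edgeR log2 fold changes (points) with SE (bars) for the Bcl2a1 sum and the 10 survival genes in 3 comparisons, filled where the 3 libraries of one stage do not overlap those of the other. The Bcl2a1 copies lie to the right of 0 in both Tumor comparisons and near 0 for PanIN over Healthy, whereas Cflar and Birc3 lie to the right of 0 in both comparisons with Healthy and near 0 for Tumor over PanIN.

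Libraries of the same stage also differed, and some libraries were extreme in several of the genes. Tumor 1 had the most Ccr7 (2602 CPM) and also the most Bcl2l1 and Bcl2a1, and the least Xiap. Healthy 2 had the least Ccr7 (57.2 CPM) and the least Bcl2l1 and Cflar, and the most Xiap. The Bcl2a1 sum did not follow Ccr7 throughout: at 1097 CPM of Ccr7 Tumor 2 had 933 CPM of it, while Healthy 1, at 1265 CPM of Ccr7, had 663 CPM. Ccr7 thus moved with several of these genes across libraries, and its part in the stage differences was not tested. Ccr7 itself had 2602, 1097 and 1584 CPM in Tumor libraries, against 1265, 57.2 and 419 CPM in Healthy libraries (log2 fold change 1.60, SE 0.77; edgeR adjusted p = 0.302).

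**Figure D5:**
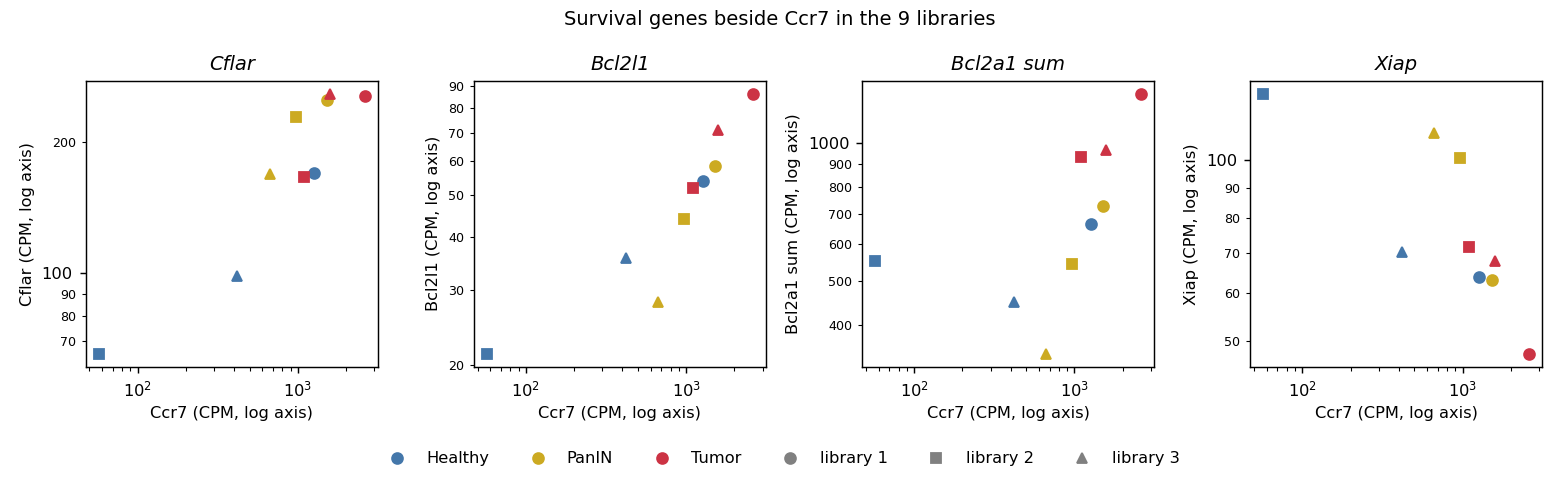
CPM of Cflar, Bcl2l1, the Bcl2a1 sum and Xiap against CPM of Ccr7 in the 9 libraries (both axes log), coloured by stage with symbols for the libraries. Cflar and Bcl2l1 are highest where Ccr7 is high and lowest in Healthy 2, Xiap runs the other way, and the 3 Tumor libraries lie above the rest in the Bcl2a1 sum.

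The genes whose log2 CPM ran most like each survival gene over the 9 libraries, among 9522 coding genes, are given by Pearson's r as a description, since all points share library depth and scaling. They were Wsb2 (0.983), Avpi1 (0.979) and Ube2e3 (0.978) for the Bcl2a1 sum, and Fbrs (0.983), Sel1l (0.983) and Kcnk6 (0.982) for Birc3. For Cflar they were Gga2 (0.987), Mocos (0.984) and Irf1 (0.983), and for Xiap they included Dpy19l4 (0.990) and Usp45 (0.988).

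Genes that act on these survival proteins were read from lists of the apoptosis and NF-kB pathways. No gene of these lists passed an adjusted p of 0.05 by edgeR in any of the 3 comparisons, and the counts that follow are of genes with an unadjusted p under 0.05. Over all genes tested, 6.82% were higher and 11% lower by that count for Tumor over Healthy. Among 8 BH3-only genes, Pmaip1 (Noxa, which neutralises Mcl1) and Bcl2l11 (Bim) were higher and Hrk lower in Tumor than in Healthy. Pmaip1 had 221, 209 and 201 CPM in Tumor libraries, against 163, 114 and 88.1 CPM in Healthy libraries (log2 fold change 0.79, SE 0.27; edgeR adjusted p = 0.175). Bcl2l11 averaged 79 ± 10.4 CPM in Tumor and 51.1 ± 14 CPM in Healthy libraries (SD, n = 3 each). None of the 3 pore-forming genes met that count, Bax being at 93.8 ± 7.94 CPM in Tumor and 65 ± 21.5 CPM in Healthy libraries (SD, n = 3 each). Of 5 regulators of Mcl1 turnover, Usp9x, which removes ubiquitin from Mcl1, and Usp13 were lower in Tumor, and Usp9x had 112, 130 and 128 CPM in Tumor libraries, against 157, 207 and 212 CPM in Healthy libraries (log2 fold change -0.64, SE 0.21; edgeR adjusted p = 0.17).

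Around the inhibitor-of-apoptosis proteins, Htra2, a mitochondrial protease that relieves caspases from them, had 163, 107 and 164 CPM in Tumor libraries, against 95.1, 49 and 53.3 CPM in Healthy libraries (log2 fold change 1.14, SE 0.29; edgeR adjusted p = 0.168). Xaf1, an interferon-induced antagonist of Xiap, was highest in PanIN, with 7.59, 11.8 and 8.04 CPM in Healthy libraries, 26, 49.4 and 55.6 CPM in PanIN libraries and 19.7, 21.6 and 23.5 CPM in Tumor libraries. No stage overlapped another in Xaf1, and its log2 fold change was 2.26 (SE 0.31; unadjusted p = 9.76e-06, edgeR adjusted p = 0.236) for PanIN over Healthy and -1.02 (SE 0.30; edgeR adjusted p = 1) for Tumor over PanIN. With Sept4, which was lower, 3 of these 4 antagonists met the count for Tumor over Healthy. A further list held anti-apoptotic genes and genes of the inhibitor-of-apoptosis family outside the 10, of which 7 were tested. Birc2 was higher in Tumor than in Healthy, and Naip5 and Naip6 in PanIN than in Healthy. Naip5 and Naip6 were listed by family, which does not make them survival genes. Fas was the 1 gene of 9 death receptor genes to be higher in Tumor than in Healthy.

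Lists of signalling genes, survival receptors and maturation genes were counted in the same way for Tumor over Healthy. Whether they act on the survival genes in these cells was not tested. Over all genes, 6.82% were higher and the median log2 fold change was -0.11. Of 10 genes of the TRAF and ubiquitin complex around Birc3, 3 were higher and none lower, with a median log2 fold change of 0.47. Traf1, which recruits Birc3, had 757, 497 and 795 CPM in Tumor libraries, against 407, 142 and 215 CPM in Healthy libraries (log2 fold change 1.42, SE 0.36; edgeR adjusted p = 0.168). Of 8 NF-kB subunits and inhibitors, 6 were higher and none lower, with a median of 0.75, among them Rela (0.75, SE 0.24; edgeR adjusted p = 0.168) and Nfkbib (1.16, SE 0.27; edgeR adjusted p = 0.168). Of 7 survival receptors, 4 were higher, among them Cd40, with 263, 180 and 235 CPM in Tumor libraries, against 135, 62.4 and 97.4 CPM in Healthy libraries. Of 12 maturation genes, 7 were higher and none lower, with a median of 1.38, and Tnfsf9 had the smallest adjusted p among the lists, at 0.123 (log2 fold change 2.25, SE 0.39; edgeR). For PanIN over Healthy the counts were 4 of 10 in the TRAF and ubiquitin complex, 2 of 8 BH3-only genes, 2 of 4 antagonists, 2 of 12 maturation genes, 1 of 7 survival receptors and none of the 8 NF-kB genes, all higher in PanIN, against 4.82% of all genes. For Tumor over PanIN, among the lists described here, 2 of 12 maturation genes and 1 of 8 NF-kB genes were higher, against 2.02% of all genes, and Xaf1 was lower, against 2.52%. The genes of these lists were measured in the same libraries, so their counts are not independent of each other. Relb is in both the NF-kB and the maturation list and was counted in both for Tumor over Healthy.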

How the data were processed

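RNA-seq of cDC1 from the peri-pancreatic lymph node was deposited by the authors as estimated counts per transcript and as TPM per transcript, for 9 libraries of 3 stages. Per the submitters' processing notes, Salmon and mm10 were used, with no version, and the labels name a directional library kit. Of 136288 transcripts, 136176 matched GENCODE M21 and were summed to genes. The estimated counts deposited by the authors were rounded after summing, since they need not be whole. The TPM deposited by the authors were summed for the order of levels.

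Genes were filtered with filterByExpr (minimum count 10), scaled with TMM (factors 0.83 to 1.19) and tested with edgeR 4.0.16 (quasi-likelihood, all 9 libraries, stage as the term, Benjamini-Hochberg over 24133 genes), and again with the Bcl2a1 copies summed (24131 genes). The SE is the log2 fold change divided by the square root of F. The common biological coefficient of variation was 56.5%. Leading-transcript shares were tested by an exact permutation test. DESeq2 1.42.0, limma 3.58.1, other filters, scalings, TPM and left-out libraries were alternatives. The script was tested on simulated data. The members and gene lists were chosen with earlier results of these data known. Named genes were the 10 members, Ccr7, Fscn1, Xcr1 and Rn7s1, up to 4 genes per list with the smallest p for any difference among stages, and the 3 coding genes most like 4 of the members. Bcl2l1-201, Birc3-202, Cflar-204 and the coding Xiap transcripts were chosen after their values were seen. Some items of these lists are not reported here.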

Additional observations from a re-analysis of the deposited data

How the results depend on the processing

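The count of survival genes passing an adjusted p of 0.05 was 0 in each comparison. For Tumor over Healthy it became 2 with DESeq2 (Bcl2a1b and Bcl2a1d), 1 with no filter on low counts (Bcl2a1b) and 1 with limma-voom and sample weights (Bcl2a1d). Over all genes, DESeq2 called 1478 of 24133 and edgeR with no filter 1041 of 36907. The count of survival genes stayed at 0 when any 1 library was left out, and in the other comparisons under every alternative run. Over all genes, however, leaving out Healthy 2 took the edgeR calls for Tumor over Healthy from 6 of 24133 to 2177 of 25589. Bcl2a1d then had an edgeR adjusted p of 0.0556. limma-voom with sample weights called 1986 genes for Tumor over Healthy and 3409 for PanIN over Healthy, where edgeR called 6 and 0. It gave Healthy 2 a weight of 0.172 and Healthy 1 one of 4.32. Of 33 log2 fold changes, 20 kept their sign under every alternative, among them all those of Tumor over Healthy except that of Bcl2 and all those of the Bcl2a1 copies and sum for Tumor over PanIN. Values that changed sign lay between -0.24 and 0.24 as reported. With limma-voom and sample weights they were -0.02 for Bcl2 (Tumor over Healthy), -0.29 for Bcl2l1 and -0.36 for Bcl2a1b (PanIN over Healthy) and -0.06 for Mcl1 (Tumor over PanIN). On log2(TPM + 1) and log2(TPM + 0.1), with a median over all genes of 0.11 and 0.23 for PanIN over Healthy, they were 0.15 and 0.21 for Bcl2l2, 0.07 in both for Bcl2a1a, 0.28 in both for Bcl2a1d and 0.24 in both for the Bcl2a1 sum. On the same 2 scales, with medians of -0.16 and -0.34 for Tumor over PanIN, they were -0.34 in both for Mcl1, -0.39 in both for Birc3, and -0.19 and -0.20 for Cflar. With counts rebuilt from TPM they were 0.003 for Bcl2a1d (PanIN over Healthy), and 0.09 for Bcl2 and -0.02 for Birc3 (Tumor over PanIN). Bcl2 for Tumor over PanIN was 0.01 with DESeq2, with RLE factors and with no filter. With Healthy 2 and Healthy 3 both left out, Bcl2l1 was -0.31 and Bcl2a1b -0.33 for PanIN over Healthy, and with coding transcripts alone, an alternative added after seeing the data, Xiap was -0.33. The cause was not tested. Leaving out 1 library at a time, the values that changed sign ranged for Tumor over Healthy from -0.21 to 0.35 for Bcl2. They ranged for PanIN over Healthy from -0.10 to 0.31 for Bcl2, -0.04 to 0.61 for Bcl2l1, -0.35 to 0.03 for Bcl2l2, -0.50 to 0.03 for Bcl2a1a, -0.27 to 0.32 for Bcl2a1b, -0.26 to 0.16 for Bcl2a1d, -0.11 to 0.46 for Xiap and -0.32 to 0.20 for the Bcl2a1 sum. They ranged for Tumor over PanIN from -0.29 to 0.27 for Bcl2, -0.06 to 0.13 for Mcl1, -0.16 to 0.16 for Birc3 and -0.08 to 0.25 for Cflar. The share of Xiap-207 had an exact permutation p of 0.0214 to 0.139 when 1 library was left out, and that of Bcl2-201 one of 0.025 to 0.121. Adding Gm29094, after seeing the data, or Bcl2a1c to the Bcl2a1 sum left its Tumor over Healthy value at 0.93. The labels carry no replicate numbers, so no replicate block was fitted. With a term for the title code that 3 libraries share, no survival gene passed, no fold change changed sign, and the Bcl2a1 sum was 0.93 (SE 0.26; edgeR adjusted p = 0.154) for Tumor over Healthy. Without Healthy 2, coding transcripts alone gave Bcl2a1b -0.04 for PanIN over Healthy.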
